A study of Mus musculus with 9 samples.

Results

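miR-2137 is a mouse microRNA (miRNA) that is cut from 1 hairpin, and 6 of the 1308 rows of the deposited table carry its name. The rows were taken by name. They are the unsuffixed row miR-2137 and 5 isomiRs, which are sequence variants of the same miRNA named with a suffix. The suffix is read here as the number of bases by which the 5′ end lies upstream (_-_) or downstream (_+_) of the annotated one, as miRquant names isomiRs. The table itself does not define it or hold sequences, and all seeds and shifts below rest on this reading. The hairpin was selected on its measured level in RPMMM (the unit is explained below), which was already known to differ between the exposures. Its levels, and all comparisons of its rows between the same exposures, are therefore a description. No p-value is given for them, and calls from fits over the whole table are counted only beside the share of all rows called.

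The RNA came from extracellular vesicles (EVs) in bronchoalveolar lavage fluid (BALF), the fluid recovered after rinsing the airways, from which cells and larger debris had been spun out. Female C57BL/6J mice, an inbred laboratory strain, were 8 to 10 weeks old and inhaled filtered air (FA), 1 ppm O3 or 2 ppm O3 for 3 h, and BALF was collected 21 h later. Each exposure was represented by 3 pools, so that 9 small RNA libraries were sequenced. A pool held BALF of 4 mice after FA and of 3 mice after either concentration of O3, and the number of mice per pool and the exposure cannot be told apart. The values are reads mapped to miRNAs, scaled so that each pool sums to the same fixed total (RPMMM). In RNA of such mixed origin, fewer vesicles or cells of a type and less RNA from each cannot be told apart.

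An miRNA guides a silencing complex to messenger RNAs, and it finds them mainly through its seed, the bases from position 2 to position 8 counted from the 5′ end. Drosha and Dicer, the RNases that release the miRNA from its hairpin, set where the mature strand begins and ends. A shift of the 5′ end by 1 base moves the seed and so changes which messages can pair with it, which is why 5′ isomiRs are counted apart from the annotated form. 3′ ends vary more often and leave the seed as it is.

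The seeds that the 6 rows would read are shown here, since the shift between rows is what the composition below describes. Each sequence is written 5′ to 3′ from RefSeq (GRCm38.p6) with its seed in capitals. The table gives the start of each isomiR and not its end, so every sequence is drawn to the annotated 3′ end.
miR-2137_-_1: uGCCGGCGggagccccagggag
miR-2137: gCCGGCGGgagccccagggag
miR-2137_+_1: cCGGCGGGagccccagggag
miR-2137_+_2: cGGCGGGAgccccagggag
miR-2137_+_3: gGCGGGAGccccagggag
miR-2137_+_4: gCGGGAGCcccagggag

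None of the other mature sequences in the RefSeq table, which holds 1674 distinct ones, had any of these 6 seeds. All 7 seed bases were G or C in the rows from _-_1 to _+_1, and 6 of 7 in the rows from _+_2 to _+_4. Of the 21 bases of the annotated miRNA, 18 were G or C (85.7%), against a median of 52.2% over the table, and 8 sequences (0.478%), miR-2137 among them, had at least as high a GC content. The mature sequence stands in the 3′ arm of the 66-base hairpin, where it is shown in capitals.
mir-2137 hairpin: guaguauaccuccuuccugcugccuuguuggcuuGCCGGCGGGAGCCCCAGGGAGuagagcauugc

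In mm9, the build used by the authors, the mature sequence lies at chrX:70237452-70237472 on the plus strand. Its hairpin falls in an intron of the protein coding gene *Zfp185*, 3677 bases after the exon before it and 4891 bases ahead of the next. The mature sequence had 1 exact match in mm9, no site with 1 mismatch and 1 further site with 2 mismatches, which also lay in an annotated gene.

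The level of the unsuffixed row was 4714, 641 and 580 RPMMM in the FA pools, 26797, 37830 and 22582 RPMMM after 1 ppm O3 and 128260, 129430 and 122935 RPMMM after 2 ppm O3. The pools of the 3 exposures did not overlap, and FA pool 1 lay far above the other FA pools. The row miR-2137_+_1 was at 743, 84.3 and 96.5 RPMMM in FA, at 5289, 7749 and 4355 RPMMM after 1 ppm O3 and at 33530, 32264 and 31184 RPMMM after 2 ppm O3. Its pools were also apart at each step. For miR-2137_+_2 the levels were 452, 23.8 and 68.2 RPMMM in FA, 2800, 5861 and 2749 RPMMM after 1 ppm O3 and 25436, 23225 and 23763 RPMMM after 2 ppm O3.

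The row miR-2137_+_3 was listed at 447, 34.9 and 48.1 RPMMM in FA, 1573, 2333 and 2582 RPMMM after 1 ppm O3 and 15455, 9652 and 8412 RPMMM after 2 ppm O3. After 2 ppm O3 its CV was 33.6%, which fell to 9.71% without pool 1, against 2.73%, 3.63% and 4.78% for the rows shifted by 0, 1 and 2 bases over the 3 pools. Both outermost rows were scarce. The highest level of miR-2137_+_4 was 16.1 RPMMM in FA, 123 RPMMM after 1 ppm O3 and 662 RPMMM after 2 ppm O3. The highest level of miR-2137_-_1 was 35.01 RPMMM in FA, 70.3 RPMMM after 1 ppm O3 and 76.9 RPMMM after 2 ppm O3. Each of these was listed at 0 in FA pools 2 and 3, and miR-2137_-_1 also in 1 ppm O3 pool 1, which here means under about 10 reads, the lowest value listed above 0 in any pool.

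**Figure D1:**
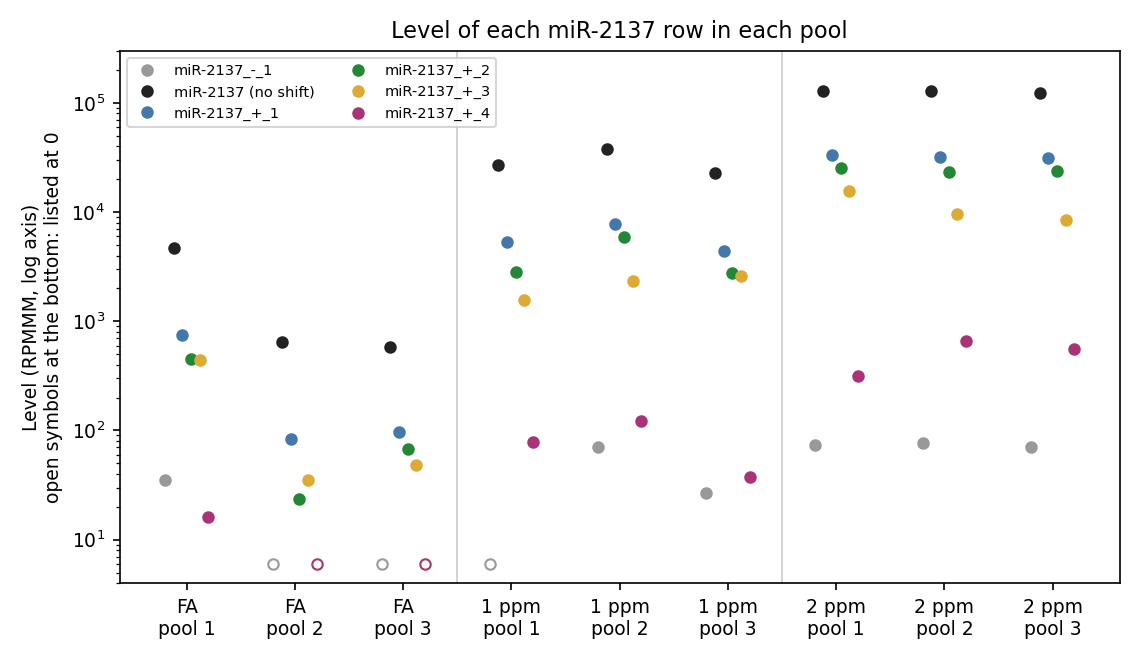
Level of the 6 rows of miR-2137 in RPMMM (log axis) in each of the 9 pools, with 1 symbol per row and pool and open symbols at the bottom for rows listed at 0. The unsuffixed row lies above all isomiRs in every pool, and FA pool 1 lies above FA pools 2 and 3 in every row.

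The 6 rows together summed to 6407, 784 and 793 RPMMM in FA, 36538, 53966 and 32332 RPMMM after 1 ppm O3 and 203066, 195310 and 186924 RPMMM after 2 ppm O3. The gap between the highest 1 ppm and the lowest 2 ppm pool was 3.46-fold, and that between FA pool 1 and the lowest 1 ppm pool was 5.05-fold. The CV of the sum was 122% in FA, 28.0% after 1 ppm O3 and 4.14% after 2 ppm O3, but that of FA rested on pool 1 and was 0.780% without it, so the spread followed no order of concentration. In limma over the 461 rows with a mean above 50 RPMMM, 5 of the 6 rows entered (miR-2137_-_1 was below), and all 5 were higher by at least 2-fold at an adjusted p below 0.05 after 1 ppm O3, where 10.4% of all rows tested were called higher and 13.2% in either direction. After 2 ppm O3 against FA it was again 5 of 5 (14.3% of all rows higher, 43.6% either way), and between 2 ppm and 1 ppm O3 it was 4 of 5 (11.3% and 33.6%). These contrasts chose the hairpin, and nothing is read from the counts.

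In FA pool 1 the sum was 8.13-fold the mean of the other FA pools. The excess was 7.72-fold for the unsuffixed row, 8.22-fold for miR-2137_+_1, 9.83-fold for miR-2137_+_2 and 10.8-fold for miR-2137_+_3, so that it was carried by all 4 abundant rows. Few other rows behaved in this way. Of the 461 rows, 18 exceeded the higher of the other FA pools by more than 1 on the log2(RPMMM + 1) scale in FA pool 1, and 8 exceeded it by more than 2. These 8 were the 5 rows of miR-2137 that passed the filter, miR-324-3p_+_2, miR-5126 and miR-5102_-_8. For miR-2137_+_4, miR-5126 and miR-5102_-_8 the excess was that of 13.9 to 16.1 RPMMM over rows listed at 0, while the lowest values listed at all were 13.6, 13.6 and 18.9 RPMMM in FA pools 1, 2 and 3. With rows at 0 set to the lowest value listed in their pool, a setting added after the data were seen, 15 rows exceeded by more than 1 and 5 by more than 2. These 5 were the 4 abundant rows of miR-2137 and miR-324-3p_+_2. The FA pools held an estimated 535560 to 773340 miRNA reads, with 771354 in FA pool 1.

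To describe the 5′ ends apart from the level, each row was expressed as a share of summed miR-2137, a ratio within 1 hairpin that does not move with the total of a pool. The unsuffixed row held 73.6%, 81.8% and 73.2% in FA, 73.3%, 70.1% and 69.8% after 1 ppm O3 and 63.2%, 66.3% and 65.8% after 2 ppm O3. All pools after 2 ppm O3 lay below all pools of the other exposures, while FA and 1 ppm O3 overlapped. The means were 76.2% ± 4.85, 71.1% ± 1.95 and 65.1% ± 1.67 (SD, n = 3 pools each).

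The share of miR-2137_+_1 was 11.6%, 10.8% and 12.2% in FA, 14.5%, 14.4% and 13.5% after 1 ppm O3 and 16.5%, 16.5% and 16.7% after 2 ppm O3. It was the only row of the hairpin whose share separated the pools of all 3 exposures, with means of 11.5% ± 0.716, 14.1% ± 0.551 and 16.6% ± 0.0965 (SD, n = 3 pools each). Put against the unsuffixed row, it counted 15.8, 13.2 and 16.6 per 100 in FA, 19.7, 20.5 and 19.3 per 100 after 1 ppm O3 and 26.1, 24.9 and 25.4 per 100 after 2 ppm O3. The annotated form and the form that starts 1 base later, whose seeds hold G and C alone, thus stood in a proportion in which no pool overlapped with a pool of another exposure.

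The share of miR-2137_+_2 was 7.05%, 3.04% and 8.60% in FA, 7.66%, 10.9% and 8.50% after 1 ppm O3 and 12.5%, 11.9% and 12.7% after 2 ppm O3. Here too the pools after 2 ppm O3 were above all others, and those of FA and 1 ppm O3 overlapped. The share of miR-2137_+_3 was 6.97%, 4.46% and 6.07% in FA, 4.30%, 4.32% and 7.98% after 1 ppm O3 and 7.61%, 4.94% and 4.50% after 2 ppm O3, and overlapped in every comparison. The means of the form shifted by 3 bases were 5.83% ± 1.27, 5.54% ± 2.12 and 5.68% ± 1.68 (SD, n = 3 pools each), and lay closer together than the pools of any 1 exposure.

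miR-2137_+_4 held at most 0.339% and miR-2137_-_1 at most 0.546% of the sum in any pool. At the depth of FA pools 2 and 3, a row at the lowest level listed, about 10 reads, would have held 1.65% and 2.36% of the sum, so shares of the outermost rows as small as those in the O3 pools were not detectable there.

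**Figure D2:**
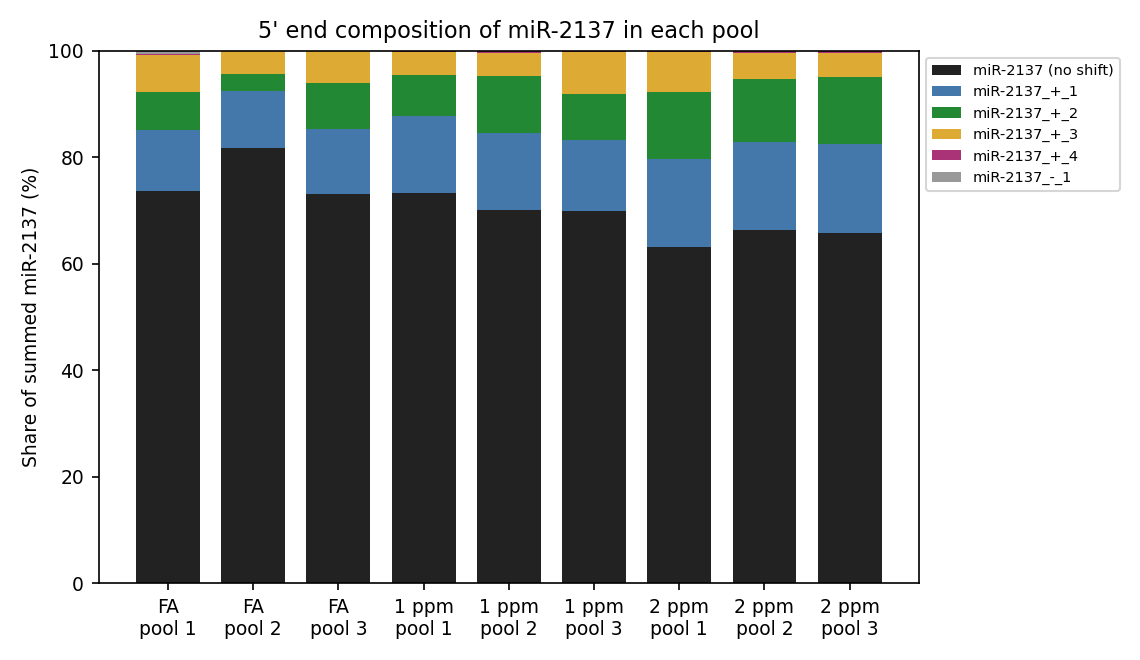
Share of each row in summed miR-2137 (%) in each of the 9 pools, as stacked bars that add up to 100%. The unsuffixed row holds 73.2% to 81.8% in FA and 63.2% to 66.3% after 2 ppm O3, and the rows shifted by 1 and 2 bases take up most of the difference.

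Summed over rows, the 5′ end lay on average 0.471, 0.302 and 0.476 bases downstream of the annotated start in FA, 0.436, 0.498 and 0.548 bases after 1 ppm O3 and 0.650, 0.564 and 0.568 bases after 2 ppm O3. The Shannon entropy of the shares, which is higher the more evenly the reads spread over 5′ ends, was 1.16 ± 0.192 bits in FA, 1.31 ± 0.0711 bits after 1 ppm O3 and 1.47 ± 0.0511 bits after 2 ppm O3 (SD, n = 3 pools each). In both measures the 2 ppm pools lay above all others, and FA overlapped with 1 ppm O3. The part of the spread that comes from counting alone differed between exposures, as miR-2137 was read by 424 to 4942 read equivalents in FA, 21960 to 29959 after 1 ppm O3 and 52627 to 61107 after 2 ppm O3. The 95% Wilson interval of the share of miR-2137_+_1 was 8.51% to 13.4% in FA pool 2 and 16.2% to 16.8% in 2 ppm O3 pool 1. These intervals cover counting error only.

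**Figure D3:**
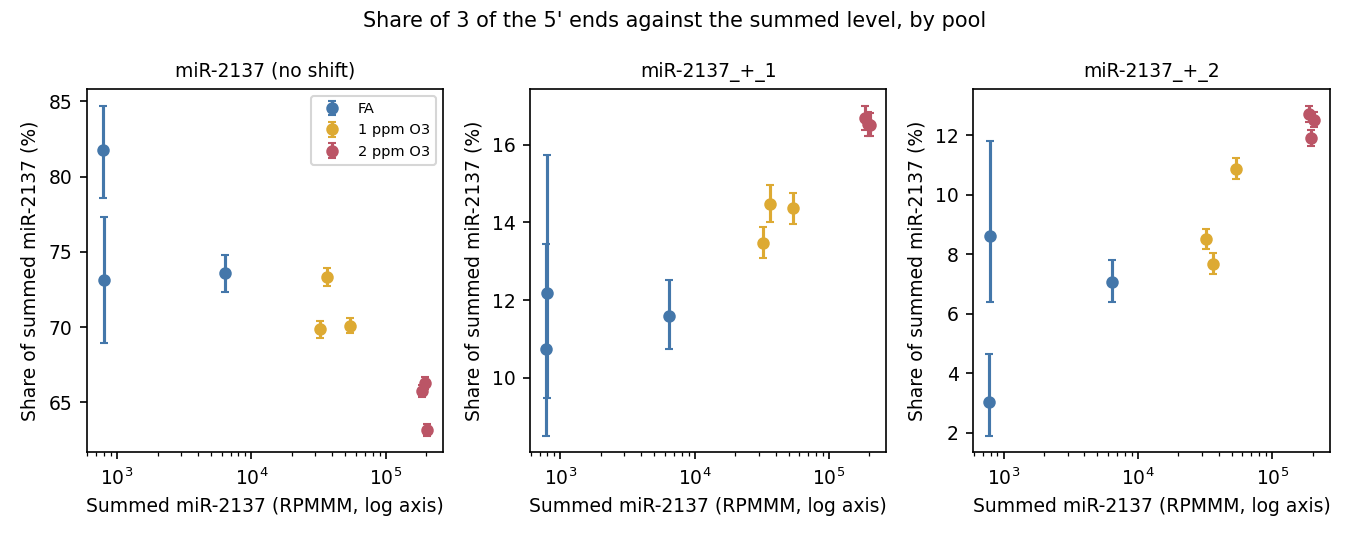
Share of miR-2137, miR-2137_+_1 and miR-2137_+_2 in summed miR-2137 (%) against the summed level in RPMMM (log axis), with 1 point per pool and 95% Wilson intervals that cover counting error only. FA pool 1, at 6407 RPMMM, has a share of miR-2137_+_1 of 11.6%, between those of FA pools 2 and 3 at 784 and 793 RPMMM.

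FA pool 1 allows level and composition to be set side by side within an exposure. Its sum was far above those of FA pools 2 and 3, yet for the unsuffixed row, miR-2137_+_1 and miR-2137_+_2 its share lay between theirs, and for miR-2137_+_3 it was the highest of the 3. After 1 ppm O3, pool 2 had the highest sum, and its share of miR-2137_+_1 lay between those of the other pools, while its share of miR-2137_+_2 was the highest of the 3. With 3 pools per exposure these are single observations.

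Separation of pools by 5′ end share was common in the table. Among 325 rows from arms with at least 2 rows, the pools of FA and 1 ppm O3 did not overlap for 20% of rows, those of FA and 2 ppm O3 for 23.7% and those of 1 and 2 ppm O3 for 17.8%. No overlap at either step in 1 direction, as for miR-2137_+_1, was found for 4 rows (1.23%). The other 3, named after their values were seen, were miR-322-3p_-_2, whose share was lower with O3, and miR-5105_-_7 and miR-5126, whose shares were higher.

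The same shares were fitted as log2 ratios of a row to the other rows of its arm, with 10 RPMMM added to both, for 327 rows in limma. The ratio of the unsuffixed row changed by -0.36 after 1 ppm O3 and by -0.76 after 2 ppm O3 against FA (SE 0.243 for each). For miR-2137_+_1 the changes were 0.25 and 0.52 (SE 0.182), for miR-2137_+_2 they were 0.46 and 0.99 (SE 0.336), and for miR-2137_+_3 they were -0.32 and -0.26 (SE 0.342). The value of miR-2137_+_4, -1.75 after 2 ppm O3, follows from the 10 RPMMM added to FA pools listed at 0, and was 0.63 with 1 RPMMM added. Both comparisons share the FA pools.

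By size, these changes were within the range of other miRNAs. Among the 327 rows the change of miR-2137_+_2 after 2 ppm O3 held place 43 from the highest, that of miR-2137_+_1 place 71 and that of the unsuffixed row place 275, where the median size of a change over all rows was 0.44. Of the 5 rows of miR-2137 in the fit, 0 were called at an adjusted p below 0.05 and 2-fold in each comparison, where 3.36% of all rows were called after 1 ppm O3 and 1.83% after 2 ppm O3 against FA. Between 2 ppm and 1 ppm O3 limma called 0% of rows, with 37 rows at an unadjusted p below 0.05 and 1 to 4 rows called with other settings of the added value or filter. Of other hairpins, the rows with the largest changes after 2 ppm O3 were miR-5115 (4.12, listed at 0 in FA pools 1 and 3) and miR-425-5p (3.09, at 100% of its arm after 2 ppm O3), both called, then miR-5109_-_3 (-2.75), miR-25-3p (2.65) and miR-182-5p_+_1 (-2.54), which were not. The value of miR-5109_-_3 also follows from the 10 RPMMM added, as the row was listed at 0 in every FA pool and held 2.43% of its arm in 2 ppm O3 pool 3 alone. Those of miR-425-5p, miR-25-3p and miR-182-5p_+_1 likewise rest on shifted rows listed at 0 in most or all 2 ppm pools. The lowest values listed there were 34.3 to 37.3 RPMMM, against 13.6 to 18.9 RPMMM in FA.

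**Figure D4:**
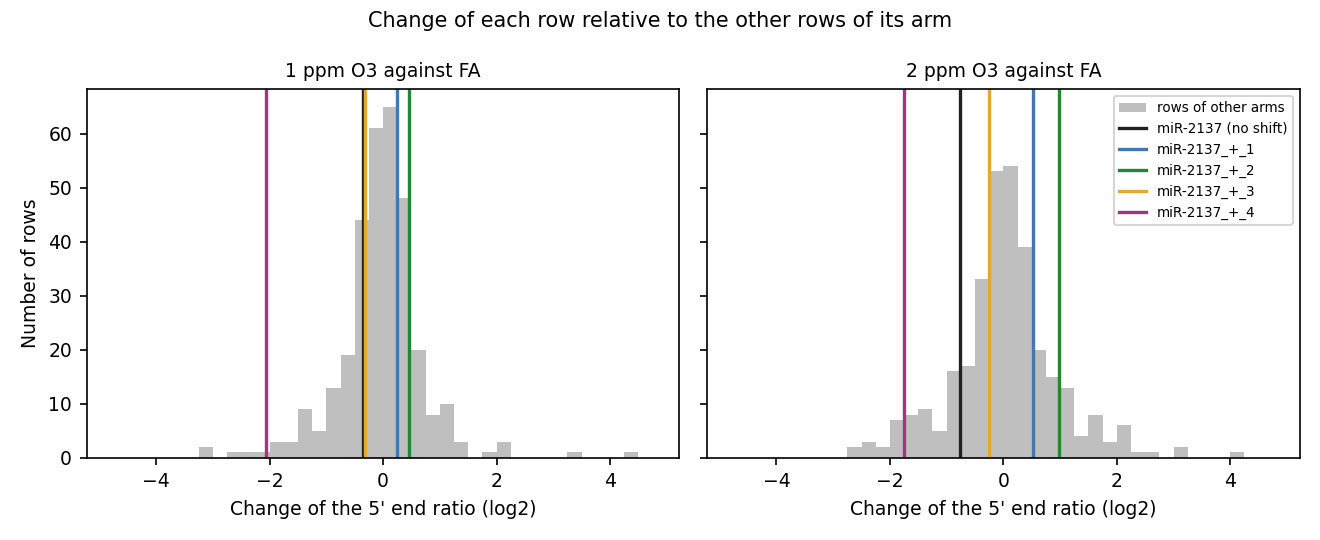
Number of rows (vertical axis) by the log2 change of their ratio to the other rows of the arm after 1 ppm O3 (left) and 2 ppm O3 (right) against FA, with grey bars for rows of other arms and coloured lines for the 5 rows of miR-2137 in the fit. The lines for shifts of 0 to 3 bases lie within the bulk of the bars, between -0.76 and 0.99 after 2 ppm O3.

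In its composition itself miR-2137 was mixed. Among 90 arms with at least 2 rows and a mean total above 1000 RPMMM, the unsuffixed row held a median of 94.7% of the arm over all pools. For miR-2137 it held 70.8%, the rank 9 from the lowest.

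The rows most like miR-2137 by level were sought with the correlation of log2(RPMMM + 1) with summed miR-2137 over the 9 pools. These values follow the exposures, which the pools share, and are a description. The 8 hairpins with the highest r were those of miR-5102_-_8 (0.993), miR-5105_-_1 (0.987), miR-5126 (0.987), miR-5115_-_3 (0.980), miR-5109_+_8 (0.971), miR-126-5p (0.895), miR-22-3p (0.894) and miR-23a-3p_+_1 (0.821). The lowest were those of miR-361-3p (-0.967), miR-10a-5p_+_1 (-0.966), miR-34a-5p (-0.932) and miR-155-5p (-0.932), the last an miRNA known from activated leukocytes. An r of at least 0.9 was reached by 32 of 456 other rows, 2 from the hairpin of miR-5126 and 30 from those of miR-5115, miR-5109, miR-5105 and miR-5102. The other 404 rows held none, and their median was -0.55. Levels are relative to a total that miR-2137 itself fills in part, so its rise alone lowers the values of other rows. The lowest r were not examined with other scalings.

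Among the hairpins with rows at an r of at least 0.9, only that of miR-5126 had a RefSeq mature sequence, so it alone is printed. The others could not be compared by sequence. The GC content of miR-5126 was 100%, and it shared a run of 6 bases, GGCGGG, with miR-2137. Its seed, in capitals, differs from the 6 above.
miR-5126: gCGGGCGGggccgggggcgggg

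The level of miR-5126 was 15.6, 0 and 0 RPMMM in FA, 29.4, 79.6 and 30.1 RPMMM after 1 ppm O3 and 484, 451 and 400 RPMMM after 2 ppm O3. That of miR-5102_-_8 was 13.9, 0 and 0 RPMMM in FA, 277, 469 and 144 RPMMM after 1 ppm O3 and 1211, 1261 and 890 RPMMM after 2 ppm O3. In FA both lay near or under the lowest values listed, so their being listed in pool 1 alone is no sign of likeness to miR-2137. miR-5105_-_1 was at 77.8, 14.2 and 24.3 RPMMM in FA, 243, 317 and 138 RPMMM after 1 ppm O3 and 1060, 1002 and 792 RPMMM after 2 ppm O3.

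Within exposures, after the mean of each exposure was subtracted, the highest r with summed miR-2137 were again those of miR-5126 (0.991), miR-5102_-_8 (0.981) and miR-5105_-_1 (0.911), followed by miR-30d-5p (0.856), miR-672-3p (0.847), miR-182-5p (0.842), miR-30e-5p_+_1 (0.839) and let-7b-5p_+_2 (0.831). The median over the 456 other rows was -0.025. FA pool 1 alone held 63.5% of the squared deviations of miR-2137. Without it, r was 0.969 for miR-5126, 0.920 for miR-5102_-_8 and 0.764 for miR-5105_-_1, but 0.118 for miR-30d-5p, 0.465 for miR-672-3p, 0.0757 for miR-182-5p, 0.481 for miR-30e-5p_+_1 and 0.127 for let-7b-5p_+_2. The likeness of these last 5 rows thus rested on FA pool 1. With rows at 0 set to the lowest value listed, r fell to 0.19 for miR-5126 and to 0.086 for miR-5102_-_8, so their first values rested on zeros in FA, while that of miR-5105_-_1 was 0.914. Over the 6 pools after O3 alone r was 0.969 for miR-5126, 0.920 for miR-5102_-_8 and 0.866 for miR-5105_-_1. All 3 had their highest value after 1 ppm O3 in pool 2, as miR-2137 did. The 3 rows were picked on deviations that include these 6 pools, so neither observation is separate support for a likeness. The setting of zeros to the lowest value and the leaving out of FA were both added after the data were seen.

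Over all rows in the fit, the median r within exposures was -0.045 for the 6 rows of miR-5102, 0.183 for the 15 of miR-5105 and 0.039 for the 4 of miR-5126. The row with the highest r of each hairpin was the one named, so it had to exceed these medians. The contrast therefore cannot tell a likeness by row from one by hairpin. Over the 9 pools, where r follows the exposures, the medians of the same hairpins were 0.797, 0.902 and 0.868. miR-5126_-_1, the most abundant row of its hairpin, held 89.3% to 92.5% of it in FA, 65.4% to 73.6% after 1 ppm O3 and 69.5% to 71.8% after 2 ppm O3, while its unsuffixed row held at most 7.50% in FA and 12.1% to 15.3% after 2 ppm O3. The reads of miR-5102 and miR-5105 were scattered over 14 and 17 rows with shifts of up to 8 bases, and no single 5′ end held a majority after 2 ppm O3. In miR-2137 the unsuffixed row led in every pool, with a tail of downstream starts.

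**Figure D5:**
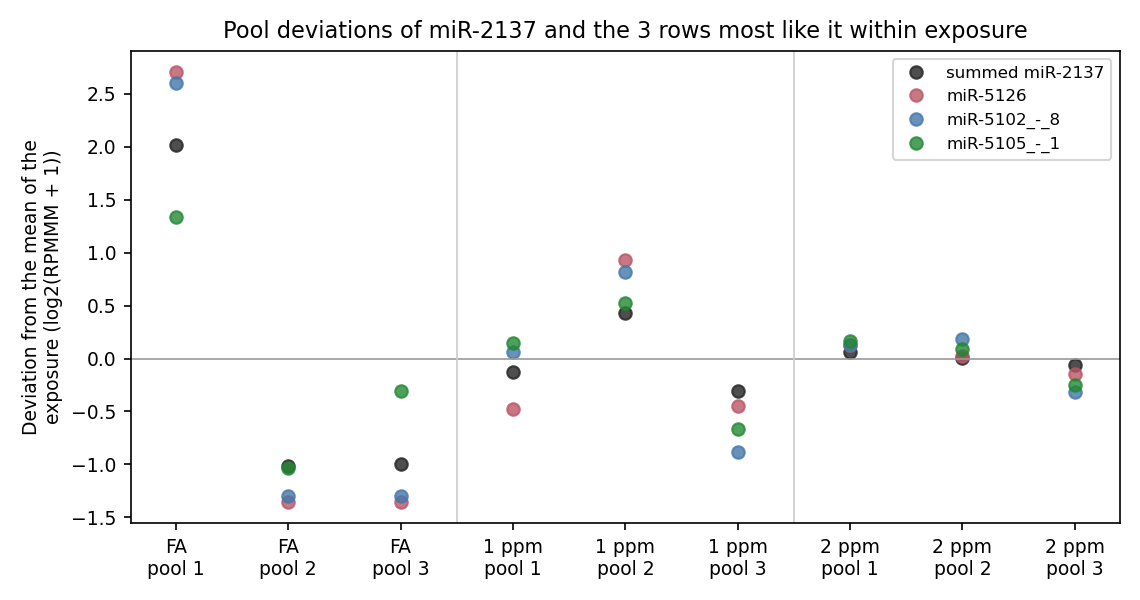
Deviation of each pool from the mean of its exposure in log2(RPMMM + 1) for summed miR-2137 and the 3 rows most like it within exposures. After 1 ppm O3 all 4 are highest in pool 2, where miR-2137 deviates by 0.43. In FA, where miR-2137 deviates by 2.01 in pool 1, the deviations of miR-5126 and miR-5102_-_8 stem from 1 value near the lowest listed and 2 zeros.

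The location and the base composition of miR-2137 were each set beside those of other miRNAs. Of 59 unsuffixed rows of other hairpins on chromosome X, 31 were in the fit. After 1 ppm O3, 1 of them was higher and 0 lower, where 6 of all 236 unsuffixed rows were higher and 9 lower. After 2 ppm O3, 17 were lower and 0 higher, where 85 of all 236 unsuffixed rows were lower and 14 higher. Among the 17, the rows of miR-450a are copies with equal values, listed at 0 in every 2 ppm pool. Those of miR-542-3p and miR-1264-3p were listed at 0 in all but 1 of these pools. The lowest values listed there were 34.3 to 37.3 RPMMM. The median log2 fold change of the 31 rows after 2 ppm O3 was -1.30, against -0.94 over all unsuffixed rows. With median-of-ratios scaling 7 of 30 were lower and 0 higher, against 22 and 23 of all 234 unsuffixed rows. GC content was known only for rows with a RefSeq mature sequence. Of the hairpins with rows at an r of at least 0.9 over the pools, all but miR-5126 lacked one and could not enter. Of 10 unsuffixed rows with a GC content of at least 70%, 2 passed the filter. These were miR-5126, with a log2 fold change of 7.45 after 2 ppm O3, and miR-760-3p, with 0.68. The value of miR-5126 rests on 15.6, 0 and 0 RPMMM in FA, near or under the lowest values listed. With means of 5.21 RPMMM in FA and 46.4 RPMMM after 1 ppm O3, miR-5126 passed the filter only through its 2 ppm pools. A row kept in this way had to be high there, so nothing is read from its rise. Levels were relative to a total that miR-2137 itself fills, as it held 18.7% to 20.3% of each 2 ppm pool, and the median log2 fold change of all rows after 2 ppm O3 was -0.83.

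The libraries held an estimated 281541 to 861019 miRNA reads, with the fewest, 281541 to 300920, after 2 ppm O3. miRNAs known from single cell types were used to describe the lavage. The airway epithelium list (miR-200 family, miR-34b, miR-34c and miR-449a) summed to 70909 to 79464 RPMMM in FA, 53106 to 57845 RPMMM after 1 ppm O3 and 35616 to 38257 RPMMM after 2 ppm O3, with 6 of 13 rows lower and 0 higher after 2 ppm O3, where 29.3% of all rows tested and 36.0% of all unsuffixed rows were lower. With median-of-ratios scaling 1 of 13 was lower, against 9.40% of all unsuffixed rows. The myeloid and leukocyte list summed to 1580 to 2206, 1502 to 2538 and 1109 to 1279 RPMMM, with 2 of 4 rows lower (1 of 4 with that scaling, where the median log2 fold change turned from -0.57 to 0.13). The endothelium and smooth muscle list summed to 4489 to 11306, 5862 to 8386 and 5816 to 5903 RPMMM, with 2 of 5 rows higher, both from miR-126, in either scaling (against 5.93% and 9.83% of all unsuffixed rows), and a median of -0.13 that became 0.57. The erythroid list ranged from 801 to 1757, 150 to 311 and 158 to 948 RPMMM, with 0 of 2 rows called after 2 ppm O3, and the striated muscle list from 140 to 4991, 123 to 180 and 0 to 179 RPMMM, with 2 of 2 rows lower, which are copies of miR-1a with equal values. None of these 5 lists had a row at 0 in all pools. No sum of these 5 lists had its lowest pool after 2 ppm O3 above its highest FA pool, as miR-2137 did. Single rows did, among them miR-126-3p (51.9 to 190 RPMMM in FA and 465 to 577 RPMMM after 2 ppm O3) and miR-126-5p (18.1 to 54.2 and 169 to 202 RPMMM). The part of these cell types in the level of miR-2137 was not tested.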

How the data were processed

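Small RNA of BALF EVs was sequenced from 9 pools. Per the study's methods, the authors removed adapters and used miRquant 2.0 to align the reads to mm9 and to quantify each miRNA and isomiR. The values they deposited are RPM scaled to the reads mapped to miRNAs (RPMMM), and all pools have the same total. Reads are not given as counts. The value of 1 read was estimated from the spacing of the lowest 200 values of each pool, taking the lowest to stand for 9 to 12 reads, and 70% to 86% of them lay on the steps. Of values below 200 read equivalents, 75.6% were whole within 0.02 reads for other hairpins, but 4 of 19 (21.1%) for miR-2137, so read equivalents are approximate and no count test was run. The labels give no replicate numbers, so pool numbers are names only. Nothing in the labels ties the pools to separate exposure runs, so the spread is that between these pools. The study's record of exposures lists 1 run for each concentration of O3 and more than 1 for FA, without assigning pools to them. If the pools came from these runs, run and concentration cannot be told apart.

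The rows of miR-2137, the marker lists and the tests were chosen with earlier results of these data known. Levels were fitted as log2(RPMMM + 1) with limma 3.58.1 in R 4.3.3, with 1 mean per exposure, a variance trend, a mean above 50 RPMMM and Benjamini-Hochberg adjustment over all rows tested. A row was called at an adjusted p below 0.05 if it also changed by at least 2-fold. 5′ end ratios were fitted without a trend, with the mean of the row and of the other rows of its arm above 50 RPMMM. Other miRNAs were named by rule, 1 row per hairpin: the 8 highest and 4 lowest r over the pools, the 8 highest r within exposures and the 5 largest ratio changes. On simulated data for 2 ppm O3 against FA with 200 rows changed 4-fold, the level fit recovered 72% of them over 461 rows and the ratio fit 84% over 327 rows. Alternatives were a pseudocount of 10 RPMMM, no filter, other scalings (the total without miR-2137, or the median of ratios), no trend, other added values or filters for ratios, other sets of rows for shares, Spearman rho, the unsuffixed row alone and leaving out each pool. Setting rows listed at 0 to the lowest value listed, leaving out the FA pools and the CVs without 1 pool were added after the data were seen. Chromosomes matched for 420 of 427 unsuffixed rows and mature sequences for 349.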

Additional observations from a re-analysis of the deposited data

How the results depend on the processing

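The shares of miR-2137 and miR-2137_+_1 moved by less than the spread between pools in all 12 settings tried. In the 9 settings that left out 1 pool, the small shift had to hold. Leaving out 1 of so few pools cannot move a mean by as much as that spread. Nothing is therefore read from those 9, and only the other settings could have turned out differently. Leaving out 1 pool at a time, the unsuffixed share after 2 ppm O3 differed from that in FA by between -12.6 and -8.30 percentage points. That of miR-2137_+_1 was higher by 4.68 to 5.40. The pools did not overlap in any of the 9 cases, but this had to hold, as they did not overlap with all pools kept. The ratio of miR-2137_+_1 after 1 ppm O3 was -0.04 with 50 RPMMM added in place of 10, against 0.25. For miR-2137_+_2 the change ranged from -0.08 to 0.75 after 1 ppm O3 over 12 settings. After 2 ppm O3 against FA it ranged from 0.43 to 1.28.

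As a description of a row selected on this difference, the log2 fold change of the unsuffixed row ranged from 4.03 to 5.54 after 1 ppm O3 and from 6.19 to 7.70 after 2 ppm O3 against FA over 14 settings. Between 2 ppm and 1 ppm O3 it was 1.99 to 2.77 and was not called in 6 of them. With median-of-ratios scaling, 120 rows in place of 201 were called after 2 ppm O3 against FA (87 higher and 33 lower, against 66 and 135), with a median over all rows of -0.08 in place of -0.83, and 81 in place of 155 between 2 ppm and 1 ppm O3 (75 higher and 6 lower, against 52 and 103). With the total taken without miR-2137, 76 were higher and 97 lower after 2 ppm O3 against FA, and 57 and 55 between the concentrations. Without 1 pool, 102 (without 1 ppm O3 pool 3) to 146 rows were called in the last comparison.

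The counts of called ratios depended on the added value. After 1 ppm O3 they were 11 with 10 RPMMM, 19 with 1 and 33 with 50, and 6 to 14 without 1 pool. After 2 ppm O3 against FA they were 6, 20 and 37, with 16 at means above 200 RPMMM and 5 to 15 without 1 pool, and between the concentrations 0, 4 and 4, with 1 at means above 200 RPMMM and 0 to 7 without 1 pool. Of the 8 hairpins most like miR-2137 within exposures, 5 were kept with median-of-ratios scaling, 5 with Spearman rho and 3 to 7 without 1 pool, 3 being without FA pool 1. The cause was not tested. No paired analysis was possible because the labels give the pools no replicate numbers that exposures share.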
